A study of Mus musculus with 9 samples.

Results

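The CCN proteins and a core set of YAP pathway genes were followed in ST2 cells, a stromal line from mouse bone marrow, after the cells had taken up human neutrophils. The set was chosen by gene symbol and held 10 genes (Ccn1 to Ccn5, Ankrd1, Amotl2, Lats2, Yap1 and Wwtr1) of the 55453 lines of the count table. All 10 passed the filter on low counts and were among the 13568 genes tested. The set was drawn up with results of these same libraries in view, among them the lower Ccn2, Ccn4 and Ankrd1 and the higher Ccn1 of fed 24 h against unfed cells. Those 4 differences are therefore given with no p-value, and the adjusted p-values of the remaining ones place each gene in the fit over all genes without being independent support for the choice.

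RNA was sequenced from 9 libraries in 3 groups of 3. Fed 24 h and fed 3 h cells were ST2 cells given aged human neutrophils (frozen for at least 18 h) at 10 per ST2 cell, for 24 h or 3 h, and then sorted for a dye signal of at least a whole neutrophil. Unfed cells were ST2 cells collected at 24 h. Every library came from the same wild-type line (genotype WT in the labels, from a marrow culture of BC8 mice as the labels spell it), so the data describe a single line. Whether the unfed cells passed through the sorter, and whether replicates were separate cultures, is not given in the sources used here, and p-values measure only the spread between these libraries. Feeding and sorting for uptake cannot be told apart in either comparison with unfed cells. No unfed 3 h group was among the libraries, so in fed 3 h against unfed cells the feeding and the hour of collection cannot be told apart either.

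YAP and its relative TAZ are transcriptional coactivators that bind no DNA themselves and reach their target genes through TEAD transcription factors. The LATS kinases of the Hippo pathway phosphorylate both and hold them in the cytoplasm, whereas spreading, tension and serum factors let them enter the nucleus. CCN proteins are secreted matricellular proteins that bind integrins and growth factors, and the genes of CCN1 and CCN2 are the most widely used readouts of YAP activity. In the bone marrow stroma and in bone, YAP, TAZ and CCN proteins take part in the choice between osteoblast and adipocyte fates and in matrix formation.

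The TEAD-binding element GGAATG is the sequence feature through which YAP reaches its targets, so the promoters of the members were searched for it, with the sequences taken from RefSeq on GRCm38.p6. A window ran from 250 bases before to 50 bases after an annotated start, and both strands were searched. Windows were available for 6 members (Ccn1, Ankrd1, Amotl2, Lats2, Yap1 and Wwtr1), with a second start for Lats2 and for Wwtr1. The 250 bases before the Ccn1 start are shown whole, at chr3:145649986-145650235 on the minus strand. Ccn1 was chosen as a common YAP readout that moved apart from Ccn2 and Ankrd1 in fed 24 h against unfed cells. Ccn3, Ccn5 and Amotl2 also moved apart from them there, and Ccn2 had no window to compare. For the other members with a window, 30 bases around each match are shown. All are written 5′ to 3′ on the strand of the gene, with the TEAD match in capitals (CATTCC is the same element on the other strand).
Ccn1, chr3:145649986-145650235, minus strand: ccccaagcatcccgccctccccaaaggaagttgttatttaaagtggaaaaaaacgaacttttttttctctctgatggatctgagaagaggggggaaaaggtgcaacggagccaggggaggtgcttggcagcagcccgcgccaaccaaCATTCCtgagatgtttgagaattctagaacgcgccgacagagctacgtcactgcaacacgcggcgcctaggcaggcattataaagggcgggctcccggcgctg
Ankrd1 far match, chr19:36120037-36120066, minus strand: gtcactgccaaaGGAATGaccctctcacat
Ankrd1 near match, chr19:36119950-36119979, minus strand: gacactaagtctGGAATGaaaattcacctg
Amotl2, chr9:102717727-102717756, plus strand: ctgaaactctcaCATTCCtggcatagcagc
Lats2, chr14:57746102-57746131, minus strand: cgtgacgcccgtGGAATGccaacaatgtag
Yap1, chr9:8004720-8004749, minus strand: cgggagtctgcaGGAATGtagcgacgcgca
Wwtr1, chr3:57576029-57576058, minus strand: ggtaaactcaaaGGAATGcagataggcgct

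A TEAD match was present in 7 of the 8 windows and in 6 of the 6 members with a window, where 14.7% of all 32851 RefSeq windows of the same length held one. Relative to the RefSeq starts, the match began 103 bases before the Ccn1 start, 210 and 123 bases before the Ankrd1 start, 65 bases before the Amotl2 start and 141 bases before the Yap1 start. In Wwtr1 it began 136 bases before the first start and, being the same site, 170 bases before the second. The Lats2 match began at base 5 of the transcript from the first start, and the window of the second start had none. GENCODE M21 places the Ankrd1, Amotl2 and Lats2 starts further upstream, at the gene ends given below. Counted from that start, the first Lats2 window begins at base 12016 of the gene and the second at base 23721. All 30 printed bases around each Ankrd1 and Amotl2 match lie in an annotated exon of the gene. Of the Lats2 bases 22 lie in its exons, while those of Ccn1, Yap1 and Wwtr1 lie in none. The AP-1 element TGANTCA, the site of Fos and Jun dimers, was in 0 of the 8 member windows and in 7.81% of all windows. The CArG box, the site of the serum response factor SRF, was in 0 member windows and in 1.63% of all windows. The TCF/LEF element CTTTGAT of WNT signalling was in 3 member windows, those of Amotl2 and Wwtr1, and in 3.73% of all windows. Matches to different motifs did not overlap each other, and both Wwtr1 windows, which overlap, hold the same TEAD and TCF/LEF sites. Matches describe letters only: known CCN and YAP elements can lie outside such short windows, and binding was not measured.

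**Figure D1:**
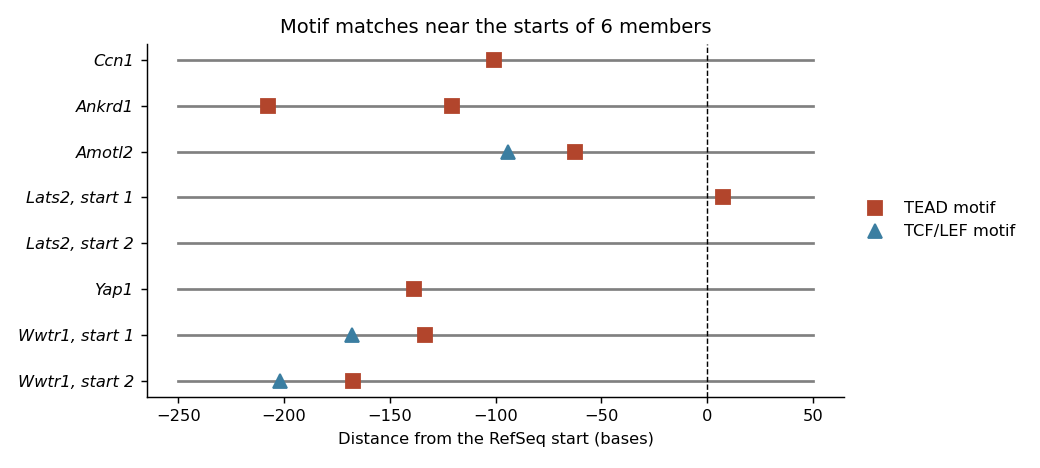
TEAD and TCF/LEF matches in the RefSeq promoter windows of 6 members, with the distance from the annotated start in bases on the horizontal axis and 1 line per window. Each line but that of the second Lats2 start holds a TEAD match, and all but the Lats2 match lie before the RefSeq start, although the Ankrd1 and Amotl2 matches lie within exons of GENCODE M21.

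The libraries held 49387906, 55971275 and 52013440 counts (fed 24 h), 49525932, 46322396 and 51205019 counts (fed 3 h) and 45709336, 48736073 and 44442664 counts (unfed). Replicates differed by more than counting error, so no library was a copy of another. Of 10 stromal markers, Thy1 alone was under 1 CPM (counts relative to the library total, scaled by TMM factors) in every library, with 1 count in all 9 libraries together. Lepr lay at 0.800 to 1.38 CPM and Nt5e at 0.906 to 1.82 CPM. The summed level of the 10 was 31930 to 33690 CPM in fed 24 h, 25762 to 26414 CPM in fed 3 h and 29053 to 31249 CPM in unfed libraries. Col1a1, Col1a2 and Cxcl12 made up most of this sum. Cxcl12 averaged 7974 CPM in fed 24 h, 2275 CPM in fed 3 h and 5712 CPM in unfed libraries. Of 10 neutrophil markers in the mouse table, S100a9 and Ngp were at 0 throughout and 9 stayed under 1 CPM. Their sum was 3.37 to 4.29 CPM in fed 24 h, 0.755 to 1.42 CPM in fed 3 h and 2.32 to 2.95 CPM in unfed libraries. Nearly all of it was Camp, with means of 3.56, 0.911 and 2.54 CPM in the same order. The neutrophils fed were human, so this sum of mouse genes is not a measure of them. Macrophage markers (4 of 10 at 0, namely Adgre1, C1qa, C1qb and Tyrobp) summed to 7.69 to 9.53 CPM, 4.55 to 5.35 CPM and 4.81 to 6.88 CPM in the same order of groups, and no endothelial marker of 6 reached 1 CPM. Gm42418 and Gm26917, whose loci gather reads of ribosomal RNA, took 0.201% to 0.350% of counts in fed 24 h, 0.0927% to 0.249% in fed 3 h and 0.0904% to 0.115% in unfed libraries. The part of these shifts in the results on the members was not tested.

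After 24 h of feeding the members split. Ccn1, Ccn3, Ccn5 and Amotl2 were higher in fed 24 h than in unfed cells, and Ccn2, Ccn4 and Ankrd1 were lower. The coactivators Yap1 and Wwtr1 and the kinase Lats2 were not called. After 3 h, Ccn2 stood at 3.61 times and Ankrd1 at 2.37 times the unfed level, Ccn3 and Ccn5 were lower, and Ccn1 was not called. In bulk RNA, fewer cells that express a gene and less of its RNA per cell cannot be told apart.

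In fed 24 h against unfed cells, 4 members were called higher, beside 14.9% of all genes tested, and 3 lower, beside 15.9% of all genes (edgeR, adjusted p under 0.05, 30.8% called in all). In 9 of the 10 members the 3 fed 24 h libraries all lay on one side of the 3 unfed ones, a pattern that 43.2% of all genes showed. No member reached a log2 fold change of 1, which 1.11% of all genes did among those called. The median log2 fold change of the members was −0.04 and that of all genes −0.0013, and the median size regardless of sign was 0.396 and 0.144. Since this comparison was in view when the members were chosen, these counts only describe the set.

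In fed 3 h against unfed cells, 7 members were called higher, where 25.1% of all genes were, and 2 lower, where 25.5% were (50.6% in all). Fed 3 h and unfed libraries did not overlap in 9 members, and in 58.2% of all genes. A call with a log2 fold change of at least 1 in either direction was made for Ccn2, Ankrd1 and Ccn3, and for 5.27% of all genes. The median log2 fold change was 0.21 for the members and −0.0085 for all genes, with median sizes of 0.366 and 0.216.

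In fed 24 h against fed 3 h cells, 3 members were called higher, where 30.8% of all genes were, and 6 lower, where 30.2% were (60.9% in all). All 10 members had fed 24 h and fed 3 h libraries that did not overlap, as did 65.9% of all genes. Ccn2, Ccn3, Ccn4 and Ankrd1 were called with a log2 fold change of at least 1 in size, as were 8.73% of all genes. The median log2 fold change was −0.25 for the members and −0.0017 for all genes, with median sizes of 0.556 and 0.277. The 3 comparisons share libraries, so their values are set side by side below and are not independent of each other.

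**Figure D2:**
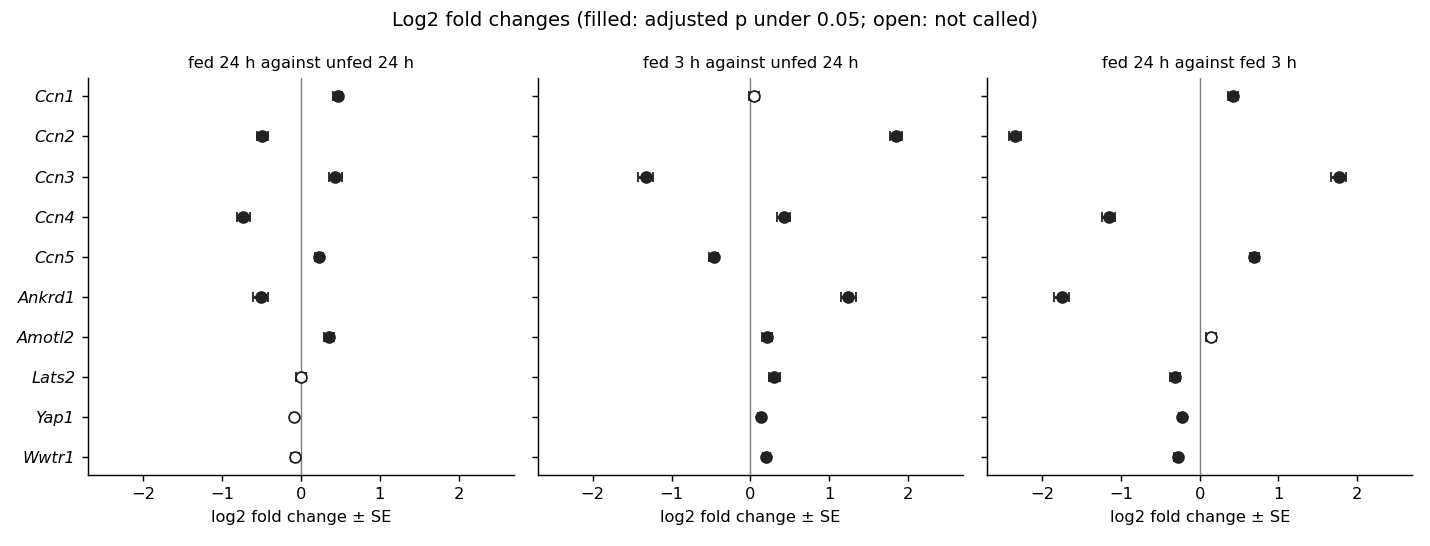
Log2 fold changes of the 10 members with their standard errors (SE, horizontal bars) in the 3 comparisons, with filled points called at an adjusted p under 0.05. Ccn2 and Ankrd1 lie left of 0 in fed 24 h and right of 0 in fed 3 h cells against unfed cells, Ccn3 and Ccn5 lie the other way round, and the values of Yap1, Wwtr1 and Lats2 stay within 0.31 of 0.

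The coactivators showed small changes. Yap1 (chromosome 9, 7931999 to 8004596, minus strand), which encodes YAP, had 113, 108 and 114 CPM in fed 24 h libraries, 134, 129 and 129.6 CPM in fed 3 h libraries and 117, 121 and 119 CPM in unfed libraries. All fed 24 h libraries lay just below the unfed ones and all fed 3 h libraries above both. The log2 fold change was −0.09 (SE 0.0397, edgeR adjusted p = 0.101) for fed 24 h against unfed, 0.14 (SE 0.0397, edgeR adjusted p = 0.00940) for fed 3 h against unfed and −0.23 (SE 0.0396, edgeR adjusted p = 0.000133) for fed 24 h against fed 3 h. Wwtr1 (chromosome 3, 57455649 to 57575910, minus strand) encodes TAZ, the paralog of YAP. It had 125, 121 and 125 CPM in fed 24 h libraries, 159.96, 146 and 144 CPM in fed 3 h libraries and 127, 135 and 129 CPM in unfed libraries. The order of the groups was that of Yap1, with no overlap between any pair of groups. Fed 24 h differed from unfed cells by −0.08 on the log2 scale (SE 0.0468, edgeR adjusted p = 0.227), fed 3 h from unfed cells by 0.20 (SE 0.0467, edgeR adjusted p = 0.00187) and fed 24 h from fed 3 h cells by −0.28 (SE 0.0467, edgeR adjusted p = 7.85e-05). Per kilobase of exon, Wwtr1 RNA was the more abundant of the pair, at 2.14 ± 0.0198 times the Yap1 level in fed 24 h, 2.22 ± 0.0888 times in fed 3 h and 2.12 ± 0.0382 times in unfed libraries (SD, n = 3 each).

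Of the members that restrain YAP, Lats2 and Amotl2 behaved differently from each other. Lats2 (chromosome 14, 57689662 to 57758388, minus strand) encodes a kinase that inactivates YAP and TAZ and is itself a YAP target, which closes a feedback loop. It had 32.1, 31.8 and 34.1 CPM in fed 24 h libraries, 43.0, 38.1 and 40.2 CPM in fed 3 h libraries and 29.3, 34.1 and 34.7 CPM in unfed libraries. The fed 3 h libraries stood above all others, and the fed 24 h libraries lay among the unfed ones. The log2 fold change was −0.0026 (SE 0.0658, edgeR adjusted p = 0.981) for fed 24 h against unfed, 0.31 (SE 0.0655, edgeR adjusted p = 0.00108) for fed 3 h against unfed and −0.31 (SE 0.0650, edgeR adjusted p = 0.000670) for fed 24 h against fed 3 h. In the annotation, 42.4% of the Lats2 exon bases also belong to Gm49361 on the same strand, which had 0 counts in all libraries beside 15602 for Lats2, and the assignment of reads in shared bases is not given in the sources used here.

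Amotl2 (chromosome 9, 102716672 to 102733418, plus strand) encodes an angiomotin-like scaffold that binds YAP at cell junctions and is also a YAP target. Levels were 349.6, 350.6 and 347 CPM in fed 24 h libraries, 319.9, 324 and 307 CPM in fed 3 h libraries and 239.9, 302 and 277 CPM in unfed libraries. Both fed groups lay above the unfed libraries, of which replicate 1 was lowest. Amotl2 rose by 0.36 in fed 24 h against unfed cells (SE 0.0626, edgeR adjusted p = 0.000709) and by 0.22 in fed 3 h against unfed cells (SE 0.0626, edgeR adjusted p = 0.00895), both as log2 fold changes. Fed 24 h and fed 3 h cells differed by 0.14 (SE 0.0624, edgeR adjusted p = 0.0662), which was not called, although 4 of the 16 alternative settings called it (adjusted p from 0.00600 to 0.184 over them).

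Ankrd1 and Ccn2, the targets most often used to read YAP activity along with Ccn1, showed the largest changes in fed 3 h cells among the genes of the set that rose. Ankrd1 (chromosome 19, 36111961 to 36120099, minus strand) encodes an ankyrin repeat protein known from heart muscle, where it binds titin and acts on transcription. Its levels were 62.0, 65.4 and 85.9 CPM in fed 24 h libraries, 246, 219 and 254 CPM in fed 3 h libraries and 94.1, 99.3 and 110.5 CPM in unfed libraries. The groups did not overlap, with fed 24 h lowest and fed 3 h highest, and replicate 3 of fed 24 h was well above its group. The means were 71.1 ± 12.9, 239.8 ± 18.5 and 101 ± 8.37 CPM in fed 24 h, fed 3 h and unfed libraries (SD, n = 3 each). The log2 fold change was −0.51 (SE 0.0971) for fed 24 h against unfed cells, 1.24 (SE 0.0961, edgeR adjusted p = 5.54e-08) for fed 3 h against unfed cells and −1.75 (SE 0.0977, edgeR adjusted p = 6.95e-10) for fed 24 h against fed 3 h cells.

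Ccn2 (chromosome 10, 24595442 to 24598683, plus strand; formerly Ctgf) encodes connective tissue growth factor, a matrix-inducing CCN protein of cartilage, bone and fibrotic tissue. It had 707, 786 and 790 CPM in fed 24 h libraries, 4317, 3485 and 3781 CPM in fed 3 h libraries and 986, 1112 and 1111 CPM in unfed libraries. Every fed 3 h library exceeded 3 times the highest unfed one, and every fed 24 h library was below the lowest unfed one. Ccn2 alone took 0.0772% of all counts in fed 24 h, 0.377% in fed 3 h and 0.108% in unfed libraries. The log2 fold change was −0.49 (SE 0.0723) for fed 24 h against unfed cells, 1.85 (SE 0.0743, edgeR adjusted p = 6.34e-11) for fed 3 h against unfed cells and −2.34 (SE 0.0756, edgeR adjusted p = 6.78e-12) for fed 24 h against fed 3 h cells. The antisense gene Gm15270 shares 23.2% of the Ccn2 exon bases and had 1012 counts in all libraries, beside 826771 for Ccn2. The sources used here differ on whether the library kit kept the strand, so reads of the pair cannot be told apart where they overlap.

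Ccn1 (chromosome 3, 145646976 to 145649981, minus strand; formerly Cyr61) encodes a pro-angiogenic CCN protein that is, like Ccn2, a direct YAP and SRF target and an early growth-response gene. It had 681, 686 and 613 CPM in fed 24 h libraries, 484, 505 and 491 CPM in fed 3 h libraries and 429, 504 and 503 CPM in unfed libraries. All fed 24 h libraries lay above the others, while fed 3 h and unfed libraries overlapped. The log2 fold change was 0.46 (SE 0.0613), or 37.9% more, for fed 24 h against unfed cells. It was 0.04 (SE 0.0613, edgeR adjusted p = 0.582) for fed 3 h against unfed cells and 0.42 (SE 0.0613, edgeR adjusted p = 2.18e-05) for fed 24 h against fed 3 h cells. The ratio of Ccn2 to Ccn1 counts within a library cancels the scaling between libraries. It was 1.04, 1.15 and 1.29 in fed 24 h libraries, 8.93, 6.90 and 7.70 in fed 3 h libraries and 2.30, 2.20 and 2.21 in unfed libraries. The 3 groups were thus separated by this ratio with no overlap, and it was lowest in fed 24 h cells, where the pair moved in opposite directions.

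**Figure D3:**
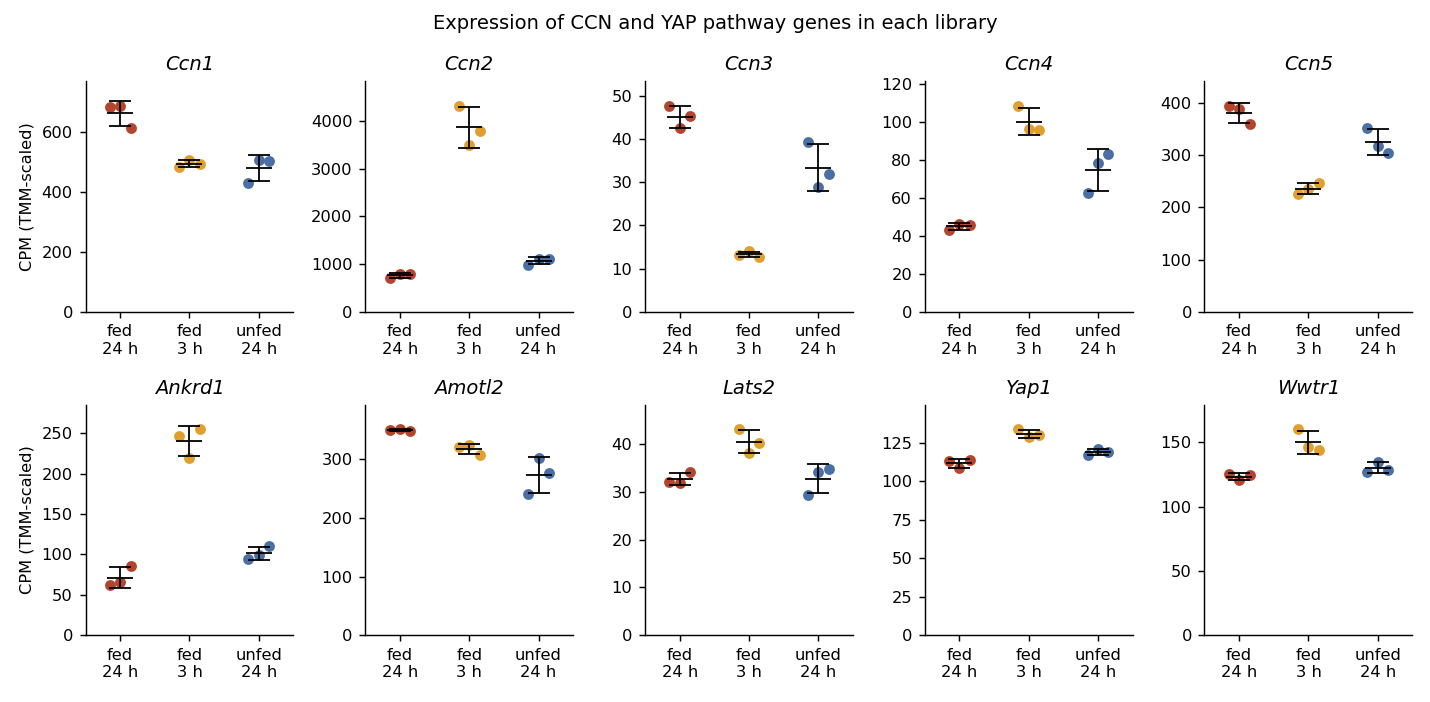
CPM of the 10 members in each library (points), with the mean and SD of the 3 libraries of a group (bars), from fed 24 h on the left to unfed on the right, each panel starting at 0. Ccn2 and Ankrd1 peak in fed 3 h libraries, Ccn3 and Ccn5 are lowest there, and Ccn1 is highest in fed 24 h libraries.

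Ccn3, Ccn4 and Ccn5 are better known for restraining growth or for their ties to WNT signalling than as YAP readouts. Ccn3 (chromosome 15, 54745702 to 54754039, plus strand; formerly Nov) encodes a CCN protein that opposes CCN2 in several tissues and inhibits osteoblast differentiation when overexpressed. Its levels were 47.7, 42.5 and 45.2 CPM in fed 24 h libraries, 13.2, 13.9 and 12.8 CPM in fed 3 h libraries and 39.4, 28.9 and 31.9 CPM in unfed libraries. Fed 3 h libraries were far below the rest, and fed 24 h libraries were all above the unfed ones. Ccn3 rose by 0.44 on the log2 scale in fed 24 h against unfed cells (SE 0.0851, edgeR adjusted p = 0.00146). It fell by 1.33 in fed 3 h against unfed cells (SE 0.0927, edgeR adjusted p = 2.00e-08), and fed 24 h exceeded fed 3 h cells by 1.76 (SE 0.0915, edgeR adjusted p = 3.36e-10).

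Ccn5 (chromosome 2, 163820861 to 163833146, plus strand; formerly Wisp2) encodes the CCN protein that lacks the C-terminal cystine knot of the others and is abundant in mesenchymal precursor cells. Fed 24 h libraries had 395, 389 and 359.6 CPM, fed 3 h libraries 225, 236 and 247 CPM and unfed libraries 352, 318 and 305 CPM. The order of the groups was that of Ccn3, with no overlap. Ccn5 rose by 0.23 in fed 24 h against unfed cells (SE 0.0563, edgeR adjusted p = 0.00638) and fell by 0.46 in fed 3 h against unfed cells (SE 0.0566, edgeR adjusted p = 6.69e-06), both on the log2 scale. Fed 24 h exceeded fed 3 h cells by 0.69 (SE 0.0566, edgeR adjusted p = 4.44e-08).

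Ccn4 (chromosome 15, 66891320 to 66923201, plus strand; formerly Wisp1) encodes a WNT-induced CCN protein that promotes osteoblast differentiation. It had 42.9, 46.2 and 45.6 CPM in fed 24 h libraries, 108, 96.2 and 95.5 CPM in fed 3 h libraries and 62.2, 78.3 and 83.0 CPM in unfed libraries. Fed 24 h libraries were the lowest and fed 3 h libraries the highest, with no overlap, as for Ccn2 and Ankrd1. The log2 fold change was −0.73 (SE 0.0834), or 39.7% less, for fed 24 h against unfed cells. It was 0.42 (SE 0.0815, edgeR adjusted p = 0.000454) for fed 3 h against unfed cells and −1.16 (SE 0.0832, edgeR adjusted p = 1.08e-08) for fed 24 h against fed 3 h cells. Ccn6, the remaining gene of the family, had 0 counts in all 9 libraries.

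Because genes differ in length, the CCN genes were compared with each other per kilobase of exon. In fed 24 h libraries Ccn1 led at 327 ± 20.1 CPM per kb, before Ccn2 (266 ± 16.3), Ccn5 (198 ± 9.91), Ccn3 (15.7 ± 0.897) and Ccn4 (8.07 ± 0.319). In fed 3 h libraries Ccn2 led at 1349 ± 147 CPM per kb, before Ccn1 (244 ± 5.51), Ccn5 (123 ± 5.52), Ccn4 (18.0 ± 1.29) and Ccn3 (4.64 ± 0.207). In unfed libraries Ccn2 led at 374 ± 25.4 CPM per kb, before Ccn1 (237 ± 21.5), Ccn5 (169 ± 12.7), Ccn4 (13.4 ± 1.96) and Ccn3 (11.6 ± 1.89; SD, n = 3 in each group). The order of Ccn1 and Ccn2 in fed 24 h libraries depends on the length used. Over the 2196 Ccn2 exon bases that Gm15270 does not share, a length chosen after seeing the data, Ccn2 stood at 347 ± 21.3 CPM per kb in fed 24 h libraries, above the mean of Ccn1 and with overlapping ranges, and still led in fed 3 h (1758 ± 192) and unfed libraries (487 ± 33.1). With all exon bases, neighbours in these orders were separated by more than their SDs except for Ccn4 and Ccn3 in unfed libraries, whose ranges overlapped.

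The summed CCN level was 815 ± 24.6 CPM per kb in fed 24 h, 1739 ± 140 in fed 3 h and 805 ± 34.9 in unfed libraries, so fed 24 h and unfed cells differed by less than their spread in the sum while they differed in its make-up. Ccn2 held 32.7 ± 2.28% of the sum in fed 24 h, 77.5 ± 2.20% in fed 3 h and 46.4 ± 1.19% in unfed libraries. Ccn1 held 40.1 ± 1.54%, 14.1 ± 1.42% and 29.4 ± 1.44% in the same order of groups. Over unshared bases, Ccn2 held 38.7 ± 2.46%, 81.8 ± 1.88% and 53.0 ± 1.19% and Ccn1 36.5 ± 1.62%, 11.4 ± 1.21% and 25.8 ± 1.18% in that order. Either length gave a lower share of Ccn2 and a higher share of Ccn1 in fed 24 h than in unfed libraries. By all exon bases, Ccn5 held 24.3 ± 0.817% in fed 24 h, 7.09 ± 0.776% in fed 3 h and 21.1 ± 2.51% in unfed libraries. Ccn3 and Ccn4 each held at most 2.04% of the sum in any library. These shares add to a whole, so a higher share of Ccn2 lowers the others, and with 3 libraries against 3 no two-sided exact permutation test could fall below p = 0.1.

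**Figure D4:**
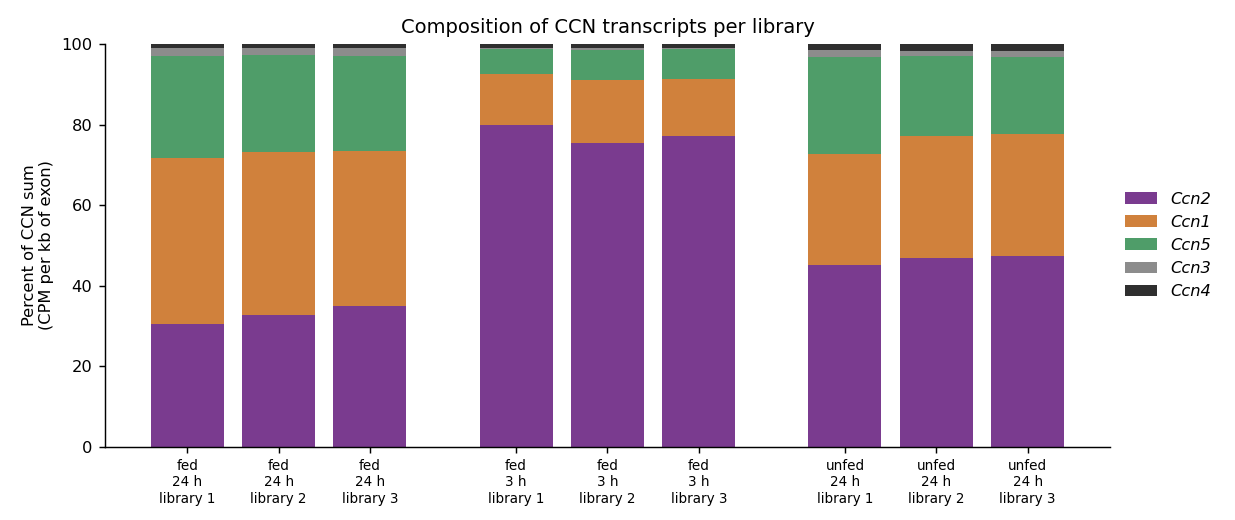
Share of each CCN gene in the summed CCN level (percent of CPM per kb of exon) in each of the 9 libraries, fed 24 h on the left and unfed on the right. Ccn2 takes 75.5% to 79.9% in fed 3 h libraries, and by these lengths Ccn1 exceeds it in fed 24 h libraries alone, where the order of the means turns when Ccn2 is taken over its unshared exon bases (347 against 327 CPM per kb).

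Outside the CCN genes, Amotl2 was the highest per kilobase in fed 24 h and in unfed libraries (55.5 ± 0.256 and 43.4 ± 4.98 CPM per kb), while in fed 3 h libraries Ankrd1 (83.1 ± 6.39) stood above Amotl2 (50.4 ± 1.41). Ankrd1 stood at 24.6 ± 4.48 in fed 24 h libraries, with a range that held all those of Wwtr1 (25.8 ± 0.519), and at 35.1 ± 2.90 in unfed libraries, above Wwtr1 (27.2 ± 0.864). Lats2 was the lowest of the set in fed 24 h and in unfed libraries (4.68 ± 0.177 and 4.69 ± 0.428), while in fed 3 h libraries Ccn3 was lower than Lats2 (5.80 ± 0.351). Over the exon bases that Gm49361 does not share, Lats2 stood at 8.13 ± 0.307 in fed 24 h libraries, within the range of Ccn4 (8.07 ± 0.319), so its last place there depends on the length used, and at 8.14 ± 0.743 in unfed libraries.

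The TEAD factors and their VGLL partners, which carry YAP to DNA or compete with it, had 6 of 8 genes tested. The counts of this and the following lists stand beside the shares of all genes tested. These were 14.9% higher and 15.9% lower in fed 24 h against unfed cells. They were 25.1% and 25.5% in fed 3 h against unfed cells, and 30.8% and 30.2% in fed 24 h against fed 3 h cells. No list was tested as a set. In fed 24 h against unfed cells 0 were higher and 4 lower (median log2 fold change −0.26), in fed 3 h against unfed cells 3 were higher and 1 lower (0.23), and in fed 24 h against fed 3 h cells 1 was higher and 5 lower (−0.41). Tead1, a TEAD factor of many tissues, averaged 185 ± 6.19 CPM in fed 24 h, 286 ± 24.3 CPM in fed 3 h and 214 ± 13.8 CPM in unfed libraries. Its log2 fold change was −0.21 (SE 0.0601, edgeR adjusted p = 0.0150) in fed 24 h and 0.42 (SE 0.0600, edgeR adjusted p = 3.02e-05) in fed 3 h against unfed cells. The call in fed 24 h cells ended without fed 24 h replicate 2 or unfed replicate 3 (values from −0.26 to −0.16 over the alternatives). Without unfed replicate 2, 5 genes of the list were higher in fed 3 h cells. Tead4 fell by 0.43 in fed 24 h and rose by 0.51 in fed 3 h cells at 3.35, 6.46 and 4.53 CPM in fed 24 h, fed 3 h and unfed cells. Vgll3 fell by 0.31 and Tead2 by 0.32 in fed 24 h against unfed cells.

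Hippo kinases and their upstream regulators had 21 of 22 genes tested. In fed 24 h against unfed cells 1 was higher and 6 lower (median −0.05). In fed 3 h against unfed cells 8 were higher and 4 lower (0.06). The calls in all were near the shares of all genes in both of these comparisons (30.8% and 50.6%). In fed 24 h against fed 3 h cells 5 were higher and 13 lower (−0.17). Ajuba, a LIM protein that inhibits the LATS kinases, averaged 77.1 ± 2.86 CPM in fed 24 h, 155 ± 2.88 CPM in fed 3 h and 101 ± 14.6 CPM in unfed libraries, and was called in both comparisons with unfed cells (−0.38 and 0.62). Without unfed replicate 3 the count of lower genes in fed 24 h against unfed cells was 3, and without fed 24 h replicate 2 that of higher ones was 3. Mob1a, a LATS cofactor, fell by 0.22 in fed 24 h against unfed cells. Sav1, the scaffold of the upstream kinases, fell by 0.33 in fed 3 h against unfed cells, and the atypical cadherin Fat4 by 0.45. Wwc1, the regulator KIBRA, is named because it stands apart in the plot of the lists, a choice made after its values were seen. It had 8, 12 and 12 counts in fed 24 h libraries, 84, 60 and 103 counts in fed 3 h libraries and 5, 7 and 13 counts in unfed libraries, a log2 fold change of 3.24 in fed 3 h against unfed cells (SE 0.313, edgeR adjusted p = 5.93e-07).

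Other described YAP and TEAD targets, a list kept apart from the members, had 16 of 17 genes tested. Of these 6 were higher and 2 lower in fed 24 h against unfed cells (median 0.12), and 11 higher and 2 lower in fed 3 h against unfed cells (0.26). In fed 24 h against fed 3 h cells 5 were higher and 5 lower (−0.04), near the shares of all genes there (30.8% and 30.2%). Some listed targets had the order of Ccn2 across groups. Nuak2, a kinase that promotes actin stress fibres, was at 4.67, 9.30 and 6.29 CPM in fed 24 h, fed 3 h and unfed cells (log2 −0.43 in fed 24 h and 0.56 in fed 3 h, each against unfed). The receptor kinase Axl, which binds dying cells through Gas6, was at 827, 1289 and 945 CPM in the same groups (−0.19 and 0.45). The Axl call in fed 24 h cells ended without fed 24 h replicate 1 or 3 or unfed replicate 2 (values from −0.23 to −0.14), and the counts of lower genes, 2 in fed 24 h and 2 in fed 3 h against unfed cells, ran from 1 to 3 over the alternatives. The second was 1 without fed 3 h replicate 2 or 3 or unfed replicate 3. Others had the order of Amotl2. Ccdc80, a matrix protein, was at 230.0, 182 and 153 CPM in fed 24 h, fed 3 h and unfed cells, with log2 fold changes of 0.59 (SE 0.0562, edgeR adjusted p = 6.37e-06) and 0.26 (SE 0.0563, edgeR adjusted p = 0.00133) against unfed cells. Myof, a membrane-repair protein, rose by 0.21 in fed 24 h and by 0.16 in fed 3 h against unfed cells.

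Receptors of CCN proteins had 9 of 10 genes tested, with 2 higher and 3 lower in fed 24 h against unfed cells (median −0.05), 6 higher and 2 lower in fed 3 h against unfed cells (0.41) and 2 higher and 6 lower in fed 24 h against fed 3 h cells (−0.44). Itga5, the fibronectin receptor subunit that also binds CCN2, averaged 341 ± 10.8 CPM in fed 24 h, 913 ± 91.3 CPM in fed 3 h and 422 ± 31.7 CPM in unfed libraries. Its log2 fold change was −0.31 (SE 0.0668, edgeR adjusted p = 0.00300) in fed 24 h and 1.11 (SE 0.0673, edgeR adjusted p = 3.76e-09) in fed 3 h against unfed cells. Itgav, the subunit of the vitronectin receptors, had −0.17 and 0.27 in these comparisons, and Lrp6, the WNT coreceptor, had 0.20 and −0.46. The Itgav call in fed 24 h cells ended without fed 24 h replicate 1 or 3 or unfed replicate 2 or 3 (values from −0.21 to −0.13), and the same omissions left 1 lower gene. The count of higher genes was 1 without fed 24 h replicate 1 or 2 or unfed replicate 3.

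SRF and MRTF targets, mostly contractile genes that share actin-sensitive control with YAP targets, had 18 of 20 listed genes in the table, all tested. The list also held the regulators Srf, Mrtfa and Mrtfb themselves. In fed 24 h against unfed cells 1 was higher and 11 lower (median −0.18), in fed 3 h against unfed cells 16 were higher and 1 lower (0.42), and in fed 24 h against fed 3 h cells 1 was higher and 17 lower (−0.55). Tagln, an actin-binding protein of smooth muscle, was at 417, 893 and 519.9 CPM in fed 24 h, fed 3 h and unfed cells (−0.32 and 0.78 against unfed). Fhl2, a LIM cofactor, was the single gene of this list that was higher in fed 24 h cells (0.28) and the single one that was lower in fed 3 h cells (−0.12). The call of Fhl2 in fed 3 h cells ended without fed 3 h replicate 2 or 3 or unfed replicate 1 or 2, with no filter and with the replicate number as a block (values from −0.14 to −0.10).

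TGF-beta targets, a class that includes Ccn2 by common usage, had 14 genes tested and moved both ways: 5 higher and 3 lower in fed 24 h against unfed cells (median 0.10), 6 higher and 5 lower in fed 3 h against unfed cells (0.01) and 6 higher and 5 lower in fed 24 h against fed 3 h cells (0.05). Smad7, the feedback inhibitor of the pathway, rose in both fed groups (0.47 in fed 24 h and 0.46 in fed 3 h). WNT targets had 8 of 14 genes tested, with 2 higher and 2 lower in fed 24 h (0.12) and 4 higher and 2 lower in fed 3 h (0.67), each against unfed cells, and 2 higher and 5 lower in fed 24 h against fed 3 h cells (−0.44). Lef1, a partner of beta-catenin, stood at 2.71, 9.86 and 3.44 CPM in fed 24 h, fed 3 h and unfed cells. Nkd2 of the same list stood at 5.23, 3.34 and 3.68 CPM in that order, highest in fed 24 h cells. Axin2, Nkd1, Sp5 and Rnf43 had 0 counts in every library. Ccn4 was, like Lef1, highest in fed 3 h cells, and a link of Ccn4 to WNT signalling was not tested. Of the TGF-beta targets, 3 to 5 were higher in fed 24 h against unfed cells when single libraries were left out (3 without fed 24 h replicate 2 or unfed replicate 3), and of the WNT targets 1 to 2 were lower in fed 3 h against unfed cells (1 without fed 3 h replicate 2 or 3 or unfed replicate 2 or 3).

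Immediate early genes, with which Ccn1 is often grouped, had 23 genes tested. In fed 24 h against unfed cells 17 were higher and 3 lower (median 0.67), in fed 3 h against unfed cells 11 were higher and 9 lower (0.20), and in fed 24 h against fed 3 h cells 16 were higher and 5 lower (1.09). Fos averaged 304 ± 51.2 CPM in fed 24 h, 18.8 ± 10.5 CPM in fed 3 h and 26.3 ± 4.94 CPM in unfed libraries. Srf, which counts in this list and among the SRF targets, was lower in fed 24 h cells (−0.25) and higher in fed 3 h cells (0.30). Jun averaged 224 CPM in fed 24 h, 113 CPM in fed 3 h and 92.6 CPM in unfed libraries, and Ccn1 was likewise highest in fed 24 h cells.

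**Figure D5:**
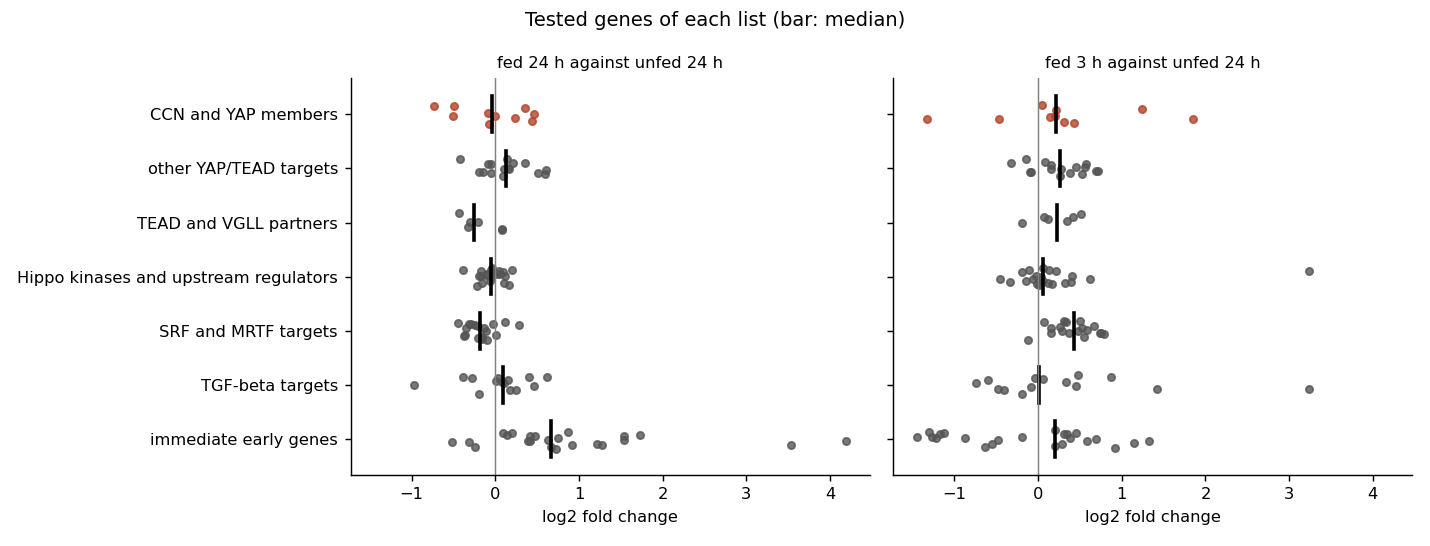
Log2 fold changes of the tested genes of the members and of 6 lists in fed 24 h (left) and fed 3 h (right) against unfed cells, 1 point per gene, with a black bar at the median. The SRF and MRTF targets have a median of −0.18 in fed 24 h and 0.42 in fed 3 h cells, and the members spread on both sides of 0 in both panels.

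The genes most like each of 4 members were sought by Pearson's r of log2 CPM over the 9 libraries, among 8543 genes with a mean of at least 10 CPM. These libraries fall into 3 groups, so r mostly reads the order and spacing of the group means and is given as a description. Nearest to Ccn1 were Recql (0.968), Jun (0.955), Rhbdf1 (0.948), Mmp11 (0.948) and Dmap1 (0.937). Nearest to Ccn2 were Spcs3 (0.999), Itga5 (0.998), Ctdp1 (0.998), Apcdd1 (0.998) and Bag2 (0.997), of which Itga5 changed most among these 5 in fed 3 h cells. Nearest to Ccn4 were Desi1, Ppid, Gspt1 and Hcfc1 (0.994 each) and Gask1b (0.992), and nearest to Ankrd1 were Smoc2 (0.994), Cnot11 (0.993), Coq10b (0.990), Tnfrsf11b (0.990) and Nup153 (0.990). No gene was named for more than 1 member. Jun, the AP-1 subunit next to Ccn1, had a log2 fold change of 1.27 in fed 24 h and 0.29 in fed 3 h against unfed cells, of which the second was not called without fed 3 h replicate 2 or unfed replicate 1 or by DESeq2 (values from 0.19 to 0.38).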

How the data were processed

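The authors deposited unnormalized read counts by mouse gene symbol, a column for each library. The submitters' processing notes name featureCounts, Subread 1.6.4, STAR 2.7.0f and MultiQC 1.7, with the builds GRCm38.p6 and GRCh38.p13. Strand setting and multi-mapping rules were not found there, and the kit is given as TruSeq Stranded mRNA in one protocol and as SMART-Seq in another. In 26 lines the symbol had become a date.

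All 9 libraries entered 1 quasi-likelihood fit of edgeR 4.0.16 (R 4.3.3) with TMM factors, filterByExpr and the group as the only term. Benjamini-Hochberg adjustment ran over the 13568 genes tested (99.96% or more of a library's counts), and an adjusted p under 0.05 made a call. The common biological coefficient of variation was 0.0536. CPM are scaled by TMM factors. The script was tested on simulated data. Positions and exon lengths are those of GENCODE M21, promoters those of RefSeq. Alternatives used DESeq2 1.42.0, limma-voom (limma 3.58.1), other filters, other samples and the replicate number.

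Members and lists were chosen with earlier results of these data known. From each list up to 3 called genes per direction, largest first, with a mean of at least 5 CPM were eligible to be named, and not all are.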

Additional observations from a re-analysis of the deposited data

Results flagged for a closer look

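For Ccn2, Ankrd1, Ccn4, Ccn3 and Ccn5 the log2 fold changes of fed 24 h and of fed 3 h against unfed cells had opposite signs. The difference between fed 24 h and fed 3 h cells was itself called by edgeR. Ccn2 was lower in fed 24 h and higher in fed 3 h cells (log2 −0.49 and 1.85), a difference of −2.34 between fed 24 h and fed 3 h. Ankrd1 (−0.51 and 1.24) had a difference of −1.75 and Ccn4 (−0.73 and 0.42) one of −1.16. Ccn3 and Ccn5 went the other way. Ccn3 (0.44 in fed 24 h and −1.33 in fed 3 h) had a difference of 1.76, and Ccn5 (0.23 and −0.46) one of 0.69. Both log2 fold changes use the same unfed libraries, collected at 24 h, so the signs are not independent of each other. In the fed 3 h value, feeding and the hour of collection cannot be told apart. The fed 24 h values of Ccn2, Ccn4 and Ankrd1 were in view when the set was chosen.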

How the results depend on the processing

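Each result was recomputed under 16 alternatives. Of 480 values for the members, 476 kept their side of the threshold, 0 lost a call and 0 reversed where a call was made. The remaining 4 gained a call, all for Amotl2 in fed 24 h against fed 3 h cells. Differences near 0 that were not called could change sign. Ccn1 ran from −0.03 to 0.08 in fed 3 h against unfed cells, and Lats2 from −0.07 to 0.04 in fed 24 h against unfed cells. Members called higher in fed 24 h against fed 3 h cells numbered 3 to 4, and no other count of members moved. Leaving out 1 library at a time gave 1426 to 2241 genes called lower in fed 24 h against unfed cells, beside 2159 with all libraries, with the lowest count reached without fed 24 h replicate 1. Deviations from the group means correlated at −0.163 to 0.0578 between same-numbered libraries and at −0.0971 to 0.104 between differently numbered ones. With 3 libraries a group, these values cannot settle whether the numbers pair libraries. With the replicate number as a block, edgeR called 1901 genes higher and 2010 lower for fed 24 h against unfed cells, and the members' counts stayed at 4 and 3, 7 and 2, and 3 and 6. Changing the scaling moved the median of all genes by less than 0.1 on the log2 scale. Depth did not limit the members, the lowest of which had 629 counts in a library, but 3 libraries a group limit the spread estimate.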
